A study of Homo sapiens with 6 samples.

Results

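The open chromatin around 10 immediate early genes outside the AP-1 family was described in wild-type hTERT-RPE1, an established human line from retinal pigment epithelium that telomerase keeps dividing. The genes were EGR1, EGR2, EGR3, IER2, IER3, DUSP1, KLF4, KLF6, MYC and MAFF. A peak belonged to a gene when it overlapped the gene's RefSeq interval on hg38 or lay within 100 kb of it. The genes took 230 of 142865 peaks in the list R1 and 216 of 134351 in the list R2, on chromosomes 1 to 22 and X. Joined where they overlapped by at least 1 bp, these made 238 of 151534 regions, and no region lay in the windows of 2 of the genes. Accessibility was measured by ATAC-seq, where Tn5 cuts and tags the open DNA of isolated nuclei. By their titles 6 libraries fall into the sets R1 and R2, 3 to a set. What R1 and R2 stand for is not stated, nor whether the libraries of a set came from separate cultures. All are wild type, and the labels name no treatment or stimulation. Each set was deposited as 1 merged peak list, so no spread between libraries and no test between the sets was possible. A lower value in such a pool cannot be told apart as fewer open cells or less opening per cell.

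Immediate early genes are transcribed within minutes of a growth factor, serum or stress signal, without a need for new protein. The signal runs through MAP kinases to the factor SRF and its ETS partners at CArG boxes, and through CREB at cyclic AMP response elements, both of which often sit just before the start of transcription. Several of the products are transcription factors. EGR1, EGR2 and EGR3 are zinc finger factors, KLF4 and KLF6 are Krüppel-like zinc finger factors, MYC is a basic helix-loop-helix factor that pairs with MAX, and MAFF is a small MAF factor without an activation domain of its own. DUSP1 is a phosphatase that switches MAP kinases off again, and IER2 and IER3 encode small proteins induced by growth factors and stress.

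RefSeq start sequences (GRCh38.p14) were matched for 7 of the 10 genes, and EGR3, IER3 and MYC had no entry. For the matched genes the 250 bases before each of 10 listed starts were searched on both strands. The search took sequences known to answer these signals and other short promoter sequences. The stretches of EGR1, EGR2, DUSP1 and MAFF are shown because they held a CArG box (CC, then 6 positions of A or T, then GG) or a full cyclic AMP response element (TGACGTCA), which are in capitals. EGR2 has 3 listed starts and MAFF has 2, and the stretch is that of start 3 of EGR2 and start 1 of MAFF, numbered in the direction of transcription.
EGR1, chr5:138465229-138465478, plus strand: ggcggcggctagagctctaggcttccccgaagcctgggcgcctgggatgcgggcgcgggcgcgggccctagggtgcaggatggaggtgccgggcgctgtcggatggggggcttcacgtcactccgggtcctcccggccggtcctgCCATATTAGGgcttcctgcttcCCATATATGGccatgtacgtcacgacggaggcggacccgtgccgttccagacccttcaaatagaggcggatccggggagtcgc
EGR2, chr10:62816367-62816616, minus strand: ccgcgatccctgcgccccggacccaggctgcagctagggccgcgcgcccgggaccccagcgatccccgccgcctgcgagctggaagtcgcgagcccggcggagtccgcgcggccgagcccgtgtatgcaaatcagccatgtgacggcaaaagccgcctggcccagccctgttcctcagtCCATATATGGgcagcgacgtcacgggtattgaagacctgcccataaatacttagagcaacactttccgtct
DUSP1, chr5:172771196-172771445, minus strand: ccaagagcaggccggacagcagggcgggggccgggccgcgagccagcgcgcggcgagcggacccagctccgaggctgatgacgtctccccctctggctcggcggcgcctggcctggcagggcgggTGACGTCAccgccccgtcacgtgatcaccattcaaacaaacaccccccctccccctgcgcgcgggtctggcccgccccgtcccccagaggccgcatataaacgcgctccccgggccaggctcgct
MAFF, chr22:38201744-38201993, plus strand: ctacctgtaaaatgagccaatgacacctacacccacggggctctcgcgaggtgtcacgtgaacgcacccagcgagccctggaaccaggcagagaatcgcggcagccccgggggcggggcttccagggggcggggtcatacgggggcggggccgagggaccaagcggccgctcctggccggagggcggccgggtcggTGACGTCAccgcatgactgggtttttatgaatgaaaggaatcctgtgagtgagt

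EGR1 held 2 CArG boxes, CCATATTAGG from 105 to 96 bases and CCATATATGG from 83 to 74 bases before its start, and EGR2 held 1, CCATATATGG, from 71 to 62 bases before start 3. A CArG box stood in 1.18% of 22156 stretches of the same length before starts of protein-coding genes. The element TGACGTCA stood from 125 to 118 bases before the start of DUSP1 and from 54 to 47 bases before start 1 of MAFF, against 2.01% of all stretches. Its shorter form TGACG, which the full element contains, was found at EGR1, EGR2, DUSP1, KLF4, IER2 and MAFF, at 6 of the 10 starts, against 24.1% of all stretches. No stretch held the AP-1 letters TGANTCA (5.36% of all), and TATAAA stood only before DUSP1, from 30 to 25 bases before its start (9.0% of all). The ETS core GGAAG stood before 7 of the 10 starts (67.2% of all), the letters GGGCGG before 8 (53.7% of all) and GGAATG, the letters bound by TEAD factors, before 1 start of EGR2 (10.5% of all). These are matches of letters, and no factor was measured. The stretches before the members' starts were rich in G and C, with a median of 69.4% against 62% over all stretches.

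The peaks covered all 4 printed stretches. In both lists all 250 bases were within a peak at EGR1, DUSP1, KLF4, KLF6 and IER2, at both starts of MAFF and at start 3 of EGR2. The same count was 0 of 250 bases in both lists at starts 1 and 2 of EGR2, which lie 2801 and 2409 bp upstream of start 3. The peak summits did not sit on the capital letters. At EGR1 the summit lay 236 bp before the start in both lists, 131 bp from the nearer CArG box. At EGR2 it lay 406 bp before start 3 in R1 and 197 bp in R2, which is 335 and 126 bp from the box. At DUSP1 it lay 134 and 99 bp after the start, 252 and 217 bp from the element. At MAFF the strongest R1 summit lay 74 bp before start 1, 20 bp from the element, and the R2 summit lay 244 bp before start 2, 829 bp from the element. R1 has a peak of its own there, with its summit 245 bp before start 2 and a fold of 4.44, and R2 covers both starts with 1 peak of 2054 bp.

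All 10 genes had a peak within 1000 bp of a start in R1 and in R2. Of 19974 protein-coding genes, 72.9% did. In R1 alone the share of all genes was 74.4% and in R2 alone 74.0%. Genes with no listed start, members or not, were scored at both ends of their interval. Among the members with a listed start the count was 7 of 7, against 74.3% of 15813 genes. Each peak carries the authors' fold enrichment over the local background, a ratio. Fold and −log10 p-value together give back 2 further values, the count over the summit, called the pileup here, and the local background. These counts are called fragments here, but whether fragments, reads or cut sites were counted is not stated. At this start-site peak, the strongest one by fold where there were several, the pileup of all 10 members exceeded the upper quartile of their list (153 in R1 and 150 in R2), as it did for 56.8% of all genes and 77.9% of the 14557 genes with a start-site peak in both lists. These are values of single peaks and are read within a list, never between the lists. EGR3 is counted here by a peak with summits 2198 bp (R1) and 2152 bp (R2) beyond the gene's end. The region inside EGR3 had pileups of 123 and 135, below the upper quartile of either list.

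Of the strongest start-site peaks of the 10 genes, that of EGR1 had the highest pileup in R1 and that of EGR2 the highest in R2. The EGR1 peak, on chromosome 5 from 138463706 to 138465966 over both lists, had a pileup of 519 fragments in R1 and 532 in R2 over a background of 156 and 161, which gives folds of 3.31 and 3.30. EGR2, on chromosome 10 from 62815975 to 62818633, had 404 and 577 fragments over backgrounds of 73.5 and 81.7, with folds of 5.43 and 6.99. Both genes thus exceed the median start-site pileup of all protein-coding genes, 291 in R1 and 307 in R2. For EGR3 the stronger region, on chromosome 8 from 22693476 to 22696083, had pileups of 392 and 416 and folds of 5.25 and 5.26. It only touches the gene's higher-numbered end, its summits lie 2198 and 2152 bp beyond that end, and 2 noncoding genes, LOC105379321 and LOC107986926, have starts there. A second region inside EGR3, from 22691899 to 22692957, had pileups of 123 and 135 and folds of 1.67 and 1.71.

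The remaining transcription factor genes differed among themselves. MYC, on chromosome 8, had a pileup of 486 in R1 and 450 in R2 over backgrounds of 109 and 107 in a region from 127734937 to 127736752, with folds of 4.43 and 4.18. The noncoding gene CASC11 has a start there too. A smaller region just before it, from 127734058 to 127734479, had folds of 2.50 and 2.23, and 1 inside the gene, from 127737126 to 127738961, had folds of 2.16 and 2.39. A region over the other end of MYC, from 127742716 to 127743753, had pileups of 109 and 108 and folds of 3.61 and 3.57. At their strongest start-site peaks KLF4 had the lowest background of the 10 genes, 36.04 and 40.6, and the highest folds, 6.56 and 8.07, with pileups of 242 and 335 on chromosome 9 from 107488450 to 107490795. For KLF6, on chromosome 10 from 3784715 to 3786104, the pileup was 281 and 378 over 92.5 and 100.2, and the folds were 3.02 and 3.75. KLF6 also had 3 shared regions in its body, the strongest by pileup from 3782326 to 3783958 with pileups of 305 and 304 and folds of 2.98 and 2.75. At both KLF genes R1 has 2 peaks where R2 has 1 wide one, of 2233 bp at KLF4 and 1384 bp at KLF6. MAFF had pileups of 323 and 321 and folds of 4.90 and 4.82 on chromosome 22.

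The genes for the phosphatase and the small induced proteins also lay on high backgrounds. DUSP1, on chromosome 5 from 172770261 to 172771993, had a pileup of 459 in R1 and 418 in R2 over 114 and 116, with folds of 3.99 and 3.57, and the noncoding gene LOC105377730 has a start there. IER2, on chromosome 19 from 13149831 to 13150753, had 449 and 429 over 135 and 134, with folds of 3.30 and 3.19. That region also lies at a start of STX10, whose interval is 36 bp from that of IER2. A second IER2 region, from 13151321 to 13153563 within the gene, is also within 1000 bp of an STX10 start and had pileups of 435 and 426 and folds of 2.73 and 2.64. IER3, on chromosome 6, had its stronger region from 30741858 to 30743527, with pileups of 353 and 379 and folds of 4.86 and 5.20. A start of FLOT1 lies at that region, 512 bp from IER3, and so does one of IER3-AS1. The region over the other end of IER3, from 30743920 to 30744873, had pileups of 210 and 200 and folds of 2.67 and 2.54.

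Set beside all protein-coding genes, the members stood high by pileup, higher by local background and low by fold. In both lists 8 of 10 exceeded the median start-site pileup, all but KLF4 and KLF6, against 33.2% of all genes. IER3, which has no listed start, is counted here by the gene end where FLOT1 has a start. Which end of IER3 is its own start is not listed. The region over the other end of IER3, with pileups of 210 and 200, lies below the medians of 291 and 307. EGR3, also without a listed start, is counted by the region that only touches its end. The region inside EGR3, with pileups of 123 and 135, lies below these medians too. The background was above its median in both lists for 10 of 10 members against 35.1% of all genes, and above its 90th percentile for 8, all but KLF4 and MAFF, against 6.58%. The fold was below its median in both lists for 9 of 10, all but KLF4, against 32.1% of all genes. These shares of all genes count genes without a start-site peak as not called, and all 10 members have one. Among the 14557 genes with such a peak in both lists the shares were 45.6% for the pileup, 48.1% for the background above its median, 9.03% for the background above its 90th percentile and 44.0% for the fold. The medians of the members were 398 fragments in R1 and 417 in R2 for the pileup, against 291 and 307 over all genes with such a peak. For the background they were 83.1 and 90.9, against 35.4 and 37.0. The median fold was 4.64 and 4.50, against 7.36 and 7.44. A rule that keeps only peaks of at least the median fold of their list (5.04 in R1, 5.12 in R2) left 3 members, EGR2, EGR3 and KLF4, against 56.8% of all genes and 77.9% of those with a peak in both lists. EGR3 is kept by the region that only touches its end, and the region inside EGR3 had folds of 1.67 and 1.71. The fold divides by the background, so the members' place by fold and by pileup are not separate measures. Their part in each other was not tested.

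**Figure D1:**
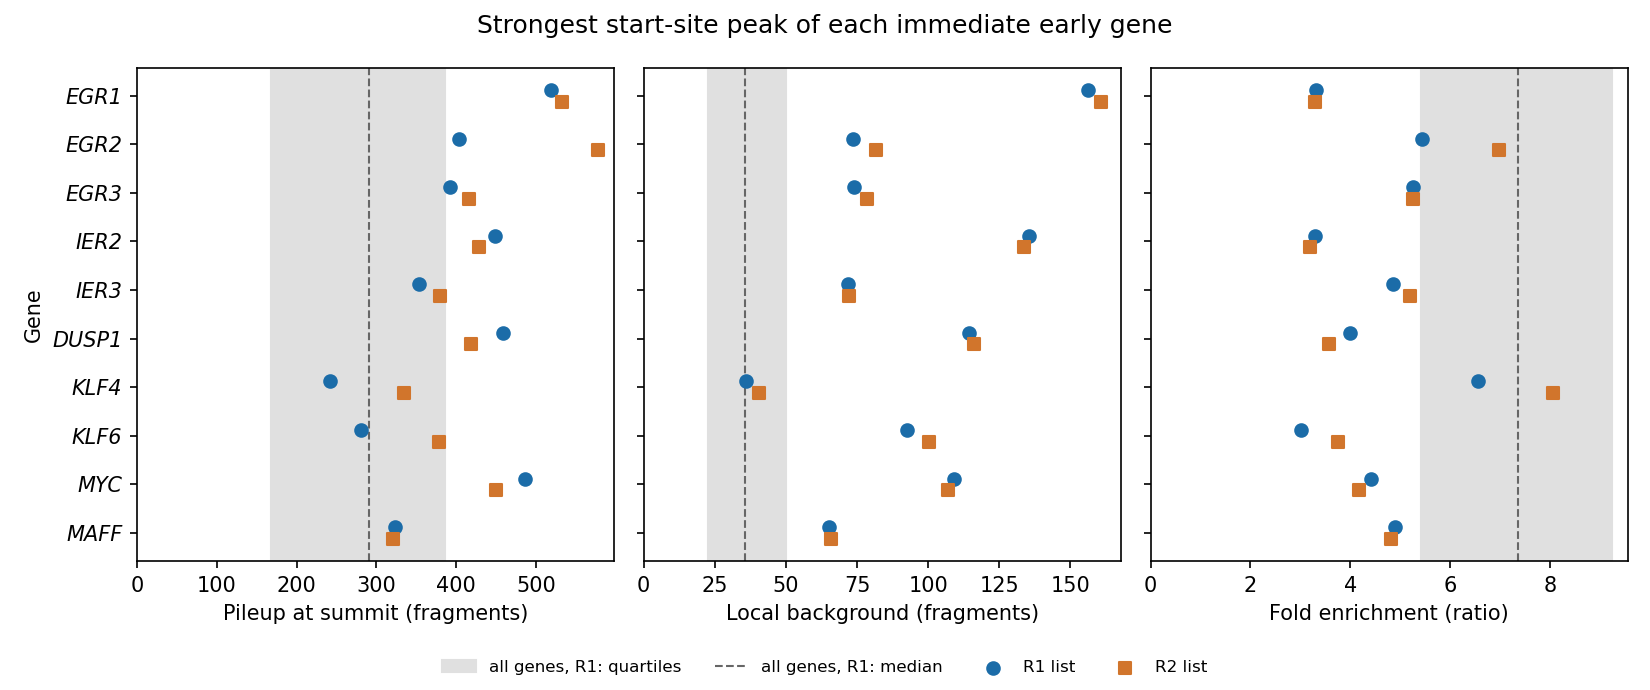
Pileup (fragments), local background (fragments) and fold enrichment (ratio) of the strongest start-site peak of each gene as circles for R1 and squares for R2. The grey band and dashed line are the quartiles and median over all protein-coding genes in R1. EGR3, IER3 and MYC have no listed start and are shown by the strongest peak at either gene end. EGR1 has the highest background (156 and 161) and KLF4 the lowest (36.04 and 40.6), and in R1 all 10 genes lie below the median fold of 7.36.

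The members are short genes, from 1349 bp (IER3) to 14518 bp (MAFF), with a median of 5370 bp against 24170.5 bp over all protein-coding genes. How much of the gene itself lay within peaks varied widely. It was 70.9% in R1 and 56.7% in R2 for IER3, 55.1% and 54.5% for IER2, 39.2% and 44.2% for MYC and 36.2% and 36.3% for EGR2. KLF6 had 28.7% and 31.5%, KLF4 20.6% and 25.5%, DUSP1 14.3% and 30.2%, and MAFF 12.5% and 10.7%. EGR3 had 3.92% and 16.0%. EGR1 had the least in R1, 0.654%, and 12.8% in R2. In R1 its peak ends at 138465503, just past the start at 138465479, and the next region begins 124 bp beyond the gene's other end, with folds of 2.14 and 2.07. Among the 6591 protein-coding genes of the same length range the median was 10.5% in R1 and 10.3% in R2. The count above that median was 8 of 10 members in R1, all but EGR1 and EGR3, and 10 of 10 in R2, where 50% of these genes lie above by definition in either list. The backgrounds at the EGR1 start were 156 and 161, and their part in its low cover was not tested.

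Over the whole windows, 201 of the 238 regions (84.5%, Wilson 95% interval 79.3% to 88.5%, counting error only) were found in both lists, against 80.8% of all regions. A further 23 were found in R1 alone and 14 in R2 alone. All of these lay below the median fold of their list, with medians of 2.21 in R1 and 2.36 in R2, against 4.44 in each list for the shared ones. The same share was not counted over all regions found in R1 alone or in R2 alone. The low folds are therefore not shown to be a trait of these windows. The shared share ran from 68.4% at EGR1, where 5 of 19 regions were in R1 alone, to 93.1% at DUSP1. It was 75% at KLF4, 80.6% at IER2 and between 84.6% and 88.2% at the other members. Shared regions within 5000 bp inside the 100 kb edge numbered 9 and those within 5000 bp outside it 8. Their median folds in R1 were 3.68 inside and 3.76 outside.

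The number of shared regions per gene spanned a wide range. MAFF and IER3 had 30 each, IER2 29, DUSP1 27 and EGR3 22. KLF6 had 19, EGR1 and MYC 13 each, EGR2 12 and KLF4 6. The median was 20.5 against 17 over all protein-coding genes, and it was 13.5 within 50 kb and 37 within 200 kb. Per 100 kb of window, 6 of 10 members exceeded the median of all genes, which is near the background of 50%. IER3 had 14.9 shared regions per 100 kb, IER2 14.2, MAFF 13.98 and DUSP1 13.3, while MYC had 6.26, EGR2 5.79 and KLF4 2.93, against a median of 6.65. Shared regions covered 15.5% of the window of IER3 and 3.37% of that of KLF4.

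**Figure D2:**
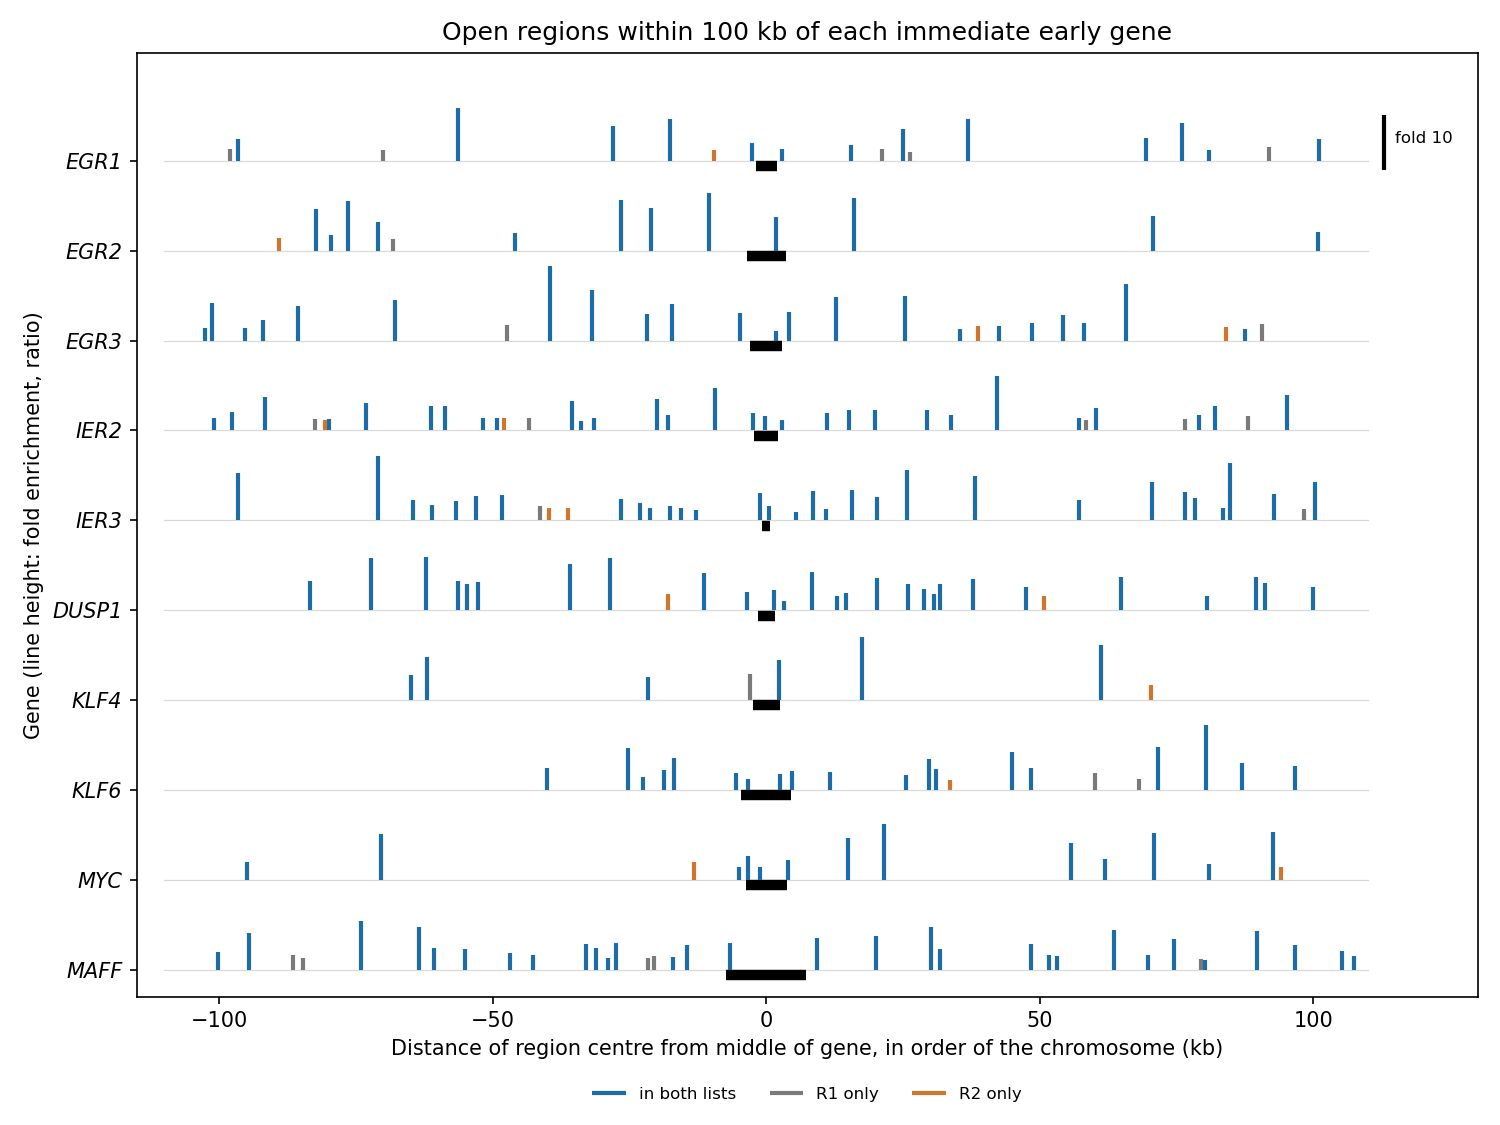
Regions within 100 kb of each gene (vertical lines, placed by the distance of their centre from the middle of the gene in kb, in the order of the chromosome), with height showing the mean fold enrichment over the lists that hold the region and a scale line for a fold of 10. Black bars are the genes. MAFF and IER3 have 30 shared regions each and KLF4 has 6.

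Neighbouring genes differed as much. The window of IER3 holds 8 other protein-coding genes, that of IER2 6, those of EGR3 and MAFF 5 each and that of EGR1 4. DUSP1 has 2 and EGR2 has 1, ADO. The windows of KLF4, KLF6 and MYC hold no other protein-coding gene. Of the 201 shared regions, 15 lay at a member's own start or gene end. A further 4 overlapped the member's body elsewhere, 3 of these at KLF6 and 1 at MYC. Another 22 lay at starts of other protein-coding genes, of which IER3 had 7, and 63 in the bodies of such genes, 21 of them at MAFF and 16 at IER2. In genes that do not code for protein lay 33, including 5 in PVT1 on the higher-numbered side of MYC. The other 64 lay between genes, 15 of them at DUSP1. Having many regions did not always go with many neighbours, since DUSP1 had 27 shared regions. KLF6 had 19, near the median of 17 over all protein-coding genes. IER3, IER2, MAFF and EGR3, each with at least 5 neighbours, had from 22 to 30. EGR1 with 4 neighbours had 13, as did MYC with none, while EGR2 had 12 and KLF4 6. The relation over all protein-coding genes was not counted. Membership by distance alone does not tie a region to a gene, and which gene any of these regions acts on was not measured.

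**Figure D3:**
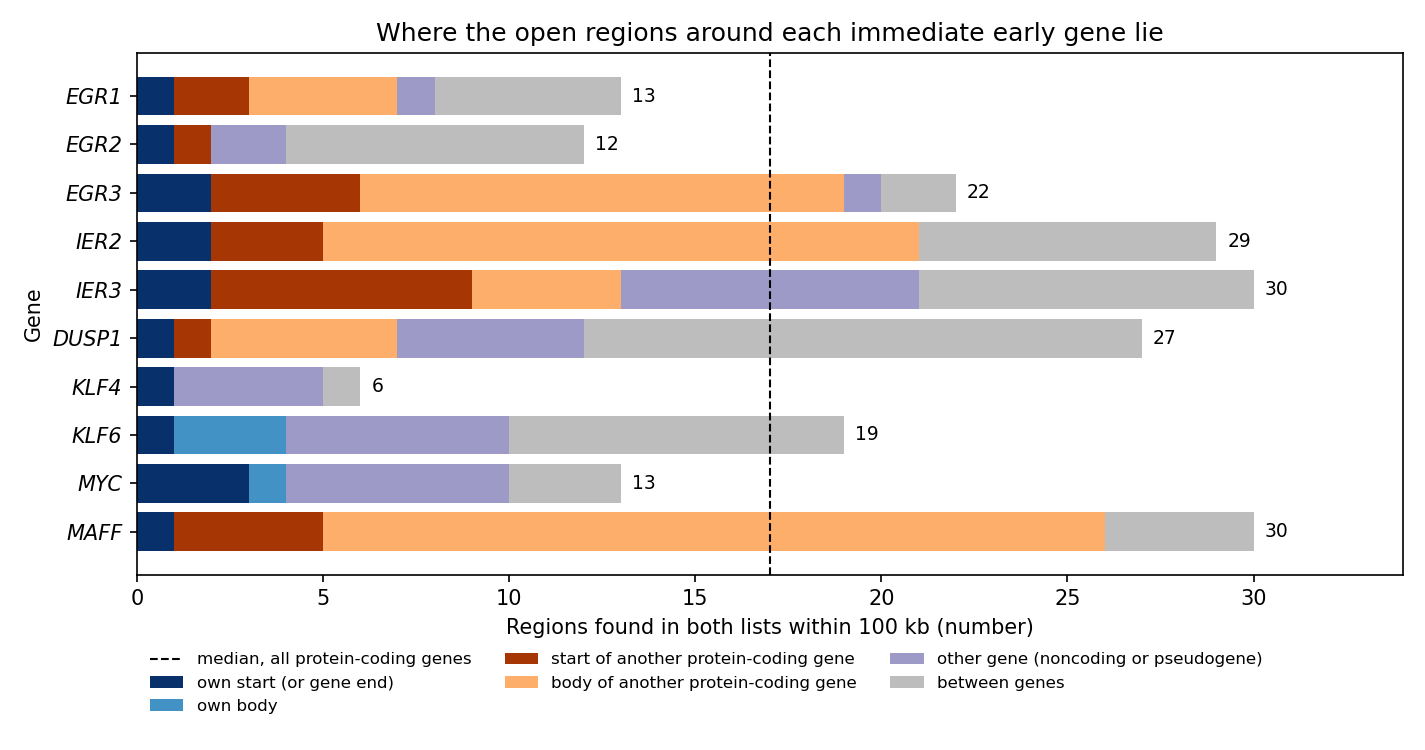
Shared regions within 100 kb of each gene (number, horizontal axis), split by where they lie, where the dashed line is the median over all protein-coding genes (17). DUSP1 has 15 of its 27 regions between genes, and MAFF has 21 of its 30 in bodies of other protein-coding genes.

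Within each list the strongest regions by fold lay away from the members' starts at every one of the 10 genes. How often this holds over all protein-coding genes was not counted, so it is not a trait of the members. Near EGR3 a region of 1386 bp within BIN3 (chromosome 8, 22650367 to 22651752), 35907 bp from EGR3, had folds of 13.4 and 13.9, the highest in any of the windows, and pileups of 332 and 337. KLF6 had a region between genes at 75332 bp (chromosome 10, 3860541 to 3861582) with folds of 12.8 and 10.8. KLF4 had one at 14448 bp (chromosome 9, 107504217 to 107505362), within the noncoding gene LOC105376206, with folds of 11.2 and 11.8. MYC had one at 17242 bp (chromosome 8, 127760193 to 127761234), between genes, with folds of 11.1 and 9.16, and one within PVT1 at 88306 bp with folds of 8.73 and 8.69. Each distal region named here rests on a lower background than the start-site peak of its member, in both lists. At the first MYC region the pileup was 148 and 135 over 12.4 and 13.8, fewer fragments than at the gene's own start.

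The other members also had their highest folds away from their starts. DUSP1 had regions at 60121 bp (chromosome 5, 172706963 to 172707975) and 26353 bp (172740403 to 172741743), both between genes, with folds of 10.03 and 9.33 and of 10.1 and 9.06. In each of these the summits of the lists fell on the same base. In R2 alone another region, at 70038 bp (172696834 to 172698058), had the highest fold, 9.54, against 9.52 in R1. IER2 had its strongest at 39495 bp (chromosome 19, 13194406 to 13195109), with folds of 10.9 and 8.99. EGR1 had its strongest within KDM3B at 54009 bp, with folds of 9.75 and 9.79, and another between genes at 34079 bp on its other side, with folds of 7.33 and 8.06. MAFF had its strongest within PLA2G6 at 65902 bp, with folds of 9.28 and 8.48, and 1 within TMEM184B at 22105 bp with folds of 7.77 and 7.98. For 2 genes the strongest region was the start of a neighbour. At EGR2 it was the start of ADO, 5682 bp away, with folds of 10.6 and 10.4, and at IER3 that of DHX16, 69612 bp away, with folds of 11.3 and 12.3. Beyond these, EGR2 had a region between genes at 12186 bp with folds of 9.89 and 9.32, and IER3 had 1 within the noncoding gene LINC00243 at 83455 bp with folds of 11.1 and 9.90.

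Other genes of the same response were described in the same way. Of 34 further response genes, among them NR4A1, CCN1, ZFP36, SGK1 and DUSP6, all 34 had a start-site peak in both lists, as did 12 of 12 upstream regulators such as SRF, ELK1 and CREB1, beside the 72.9% of all genes. The 34 genes had a median pileup of 340.5 in R1 and 349.5 in R2, a median background of 66.6 and 72.8 and a median fold of 4.58 and 4.47. The regulators, longer genes with a median of 60357.5 bp, had a median background of 38.9 and 45.2 and a median fold of 6.85 and 6.32. The most shared regions within 100 kb among the response genes lay around DUSP5, a MAP kinase phosphatase gene, with 30, and TRIB1 with 27. HBEGF, the heparin-binding EGF-like growth factor gene, NR4A1 and MAFG had 26 each. DUSP5 had folds of 9.77 and 8.81 over a background of 28.7 and 28.2, and TRIB1 folds of 3.42 and 3.69 over 98.3 and 105. Among the regulators MRTFA had 44 and ELK4 25. Whether these lists differ from the members was not tested.

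The distance of the shared regions from the gene was not even. Between 10 and 25 kb from either end lay 41 of them, a mean of 4.1 per gene against 2.01 over all protein-coding genes. IER3 had 8 there, KLF6 and MAFF 6 each, DUSP1 and IER2 4 each, EGR1, EGR2 and EGR3 3 each, and KLF4 and MYC 2 each, where the median of all genes is 2. Of the 41 regions, 16 lay between genes, 11 in noncoding or pseudogenes, 10 in bodies and 4 at starts of other protein-coding genes. Per 10 kb the mean was 1.37 there, 0.889 from 1 to 10 kb and 0.74 from 25 to 50 kb, against 0.669, 0.681 and 0.655 over all genes. From 50 to 75 kb and from 75 to 100 kb it was 0.86, against 0.643 and 0.642. Within 1000 bp of the gene it was higher still, 1.5 against 0.714, but over only 3 regions. This distance was singled out after the counts were seen and was not tested.

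**Figure D4:**
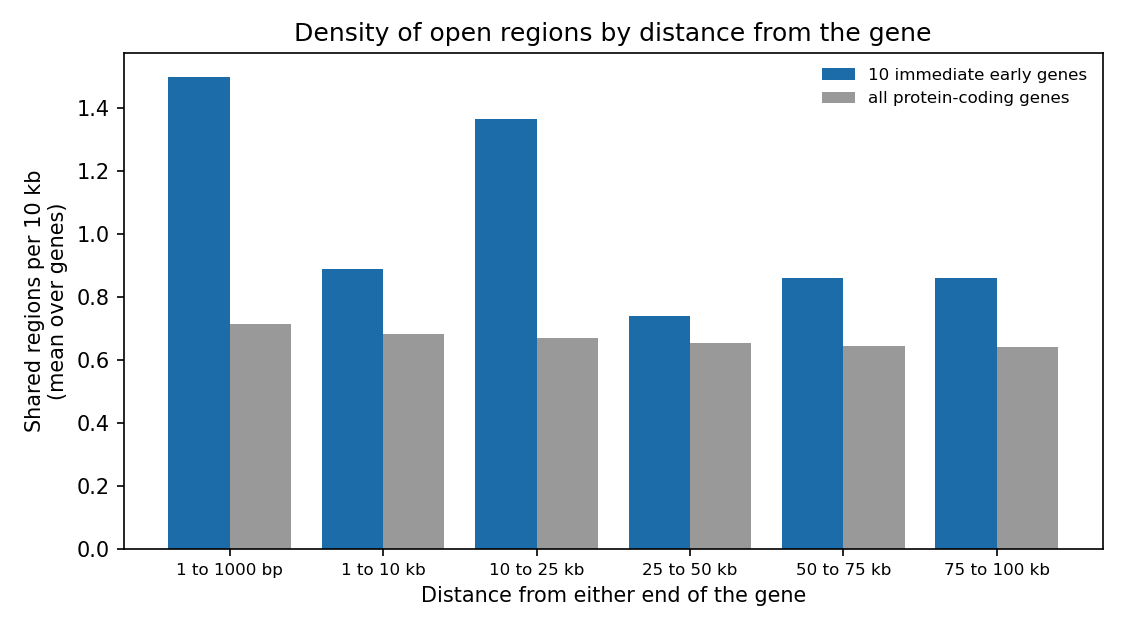
Mean number of shared regions per 10 kb (vertical axis) by distance from either end of the gene, for the 10 immediate early genes (blue bars) and all protein-coding genes (grey bars), with no error bars. The members' bar at 10 to 25 kb is 1.37 against 0.669, and the bar at 1 to 1000 bp, 1.5 against 0.714, rests on 3 regions.

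As a check of the labelled cell type, 8 of 11 pigment epithelium markers had a start-site peak in both lists, and RPE65, TYR and TTR had none in either. The counts were 3 of 4 for mesenchymal markers (THY1 had none), 3 of 4 for epithelial markers (CDH1 had a peak in R2 alone) and 2 of 3 for blood markers (PTPRC had none). With 72.9% of all protein-coding genes open at a start, these counts do not separate cell types.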

How the data were processed

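ATAC-seq peaks of wild-type hTERT-RPE1 cells were taken from 2 headerless lists, R1 and R2, each merged by the authors over 3 libraries per the labels' titles and file names. Per the submitters' processing notes the coordinates are on hg38. Aligner, peak caller and settings: not given in the sources used here. Per peak the authors deposited a fold enrichment (a ratio), −log10 p- and q-values, a summit offset and a whole-number score equal to about 10 times the −log10 q, which was not used. Library depth is unknown. Each list is a merge, made by steps not stated, so no error between replicates could be given.

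Regions of both lists were joined at an overlap of at least 1 bp. Gene intervals, starts and sequences came from RefSeq (GRCh38.p14). Genes without a listed start took both interval ends. The pileup k and background were solved from fold = (k + 1) / (background + 1) and the Poisson chance of more than k. Whole k gave 100% of the deposited −log10 p-values within 0.001, a relation inferred from the values. The 10 genes, the other lists, the motifs and the rule for named regions (highest mean within-list percentile of fold, own starts left out, up to 2 per member; a further DUSP1 region is named for its R2 fold) were chosen with earlier results of these data known. Calculations ran in Python 3.11.15 with scipy 1.17.1, pandas 2.3.3 and numpy 2.4.6, figures were drawn with matplotlib 3.10.9, and the pileup, overlap, window, cover and start-site steps were tested on simulated data. Alternatives were stricter q-values, other overlaps, windows, lists and choices of peak. The values of 1 upstream regulator are not reported here.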

Additional observations from a re-analysis of the deposited data

How the results depend on the processing

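No paired analysis was possible because each set was deposited as 1 merged list, and for the same reason no library could be left out. The 84.5% of regions found in both lists became 88.6% at −log10 q of at least 5, 89.1% at 10 and 71.4% where summits had to lie within 150 bp, and stayed within its interval under the other 4 alternatives. Under these alternatives the share was not counted over all regions, so no such value stands beside them. The median of 20.5 shared regions per member became 13.5 within 50 kb and 37 within 200 kb, and stayed within 1.5 times under the other 4. The count of 10 members with a start-site peak in both lists fell to 3 among peaks of at least the median fold of their list. The median fold, averaged over the lists, was 4.57 and became 3.69 with the peak nearest to the start and 3.87 with the 7 members that have a listed start, an alternative chosen after seeing the data. The median pileup of 407.5 became 357 with the nearest peak. By list it was then 357.5 in R1 and 356.5 in R2, against 282 and 302 over all genes with such a peak. With the strongest peak it was 398 and 417, against 291 and 307. With the nearest peak the median fold was 3.80 and 3.57, against 7.16 and 7.30 over all such genes. Leaving out IER2 and IER3, whose peaks lie at starts of other protein-coding genes, gave 4.58 and 407.5, again chosen after seeing the data. Depth per library is unknown, so regions missing from a list may lie under its detection limit.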

Other observations

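The letters CACGTG, an E-box of the kind bound by MYC with MAX and by USF factors, stood before 6 of the 10 listed starts of the members, at DUSP1, EGR2, KLF4, KLF6 and both starts of MAFF, against 7.37% of 22156 stretches before starts of protein-coding genes. At EGR2 the match lay before start 2, which no peak covered. This is a match of letters, singled out after the counts were seen and not tested. By gene it stood at 5 of the 7 members with a listed start. The members' stretches were richer in G and C, with a median of 69.4% against 62%, and the part of this was not tested.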
